A study of Mus musculus with 21 samples.

Results

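Immune and stromal genes were followed in the VDR ChIP-seq and ATAC-seq peak lists of mouse intestinal epithelial preparations. The 32 genes were 4 T cell genes (Cd3e, Cd3g, Cd4, Cd8a), 3 B cell genes (Cd79a, Cd79b, Ms4a1), the leukocyte gene Ptprc, 9 myeloid genes (Itgam, Itgax, Emr1, Csf1r, Sfpi1, Cd68, Lyz2, Fcer1g, Tyrobp), 7 fibroblast and matrix genes (Col1a1, Col1a2, Col3a1, Dcn, Lum, Pdgfra, Pdgfrb), 4 smooth muscle genes (Acta2, Myh11, Des, Tagln) and 4 endothelial genes (Pecam1, Cdh5, Kdr, Vwf). All 32 were found among the 22359 protein-coding genes of the mm9 annotation. For each one, the peaks overlapping the gene body or the 10 kb on either side were collected from the list pooled over the samples of a compartment, and each peak was looked up in the lists of the single samples.

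VDR ChIP-seq was done on 4 samples each of colon, SI crypt and SI villus from mice labelled C57BL/6 (C57BL/6J in the protocol text and methods) and 4 to 6 weeks old that had received 10 ng/g 1,25(OH)2D3 intraperitoneally 1 h before. No ChIP-seq sample without 1,25(OH)2D3 was analysed here, so a VDR peak does not show that the treatment raised binding. ATAC-seq was done on 3 samples of each compartment from mice of the same strain label, labelled as 90 days old. The ATAC-seq labels carry the same protocol text with 1,25(OH)2D3 as the ChIP-seq labels, whereas the study's methods name no treatment of these mice and call their open chromatin basal. For the ChIP-seq mice the methods give an older age than the labels, and both sets were on standard chow. SI crypt and SI villus were released from proximal small intestine with EDTA and separated on a filter. The colon epithelium of the whole colon was scraped off until the tissue was transparent, so the colon differed from the small intestine in organ and in preparation, and these cannot be told apart. No sort on a cell surface marker is described for either preparation. Samples of different compartments may share mice, the labels do not tie samples to mice, and p-values measure the spread between these samples.

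ATAC-seq marks DNA that is open to a transposase, and the promoter of a gene in use is usually open. The genes followed here mark cells that surround or enter the epithelium. Cd3e and Cd3g encode chains of the T cell receptor complex, Cd79a and Cd79b the signalling chains of the B cell receptor, and Ptprc encodes the phosphatase CD45 of all leukocytes. Intraepithelial lymphocytes lie between epithelial cells, whereas fibroblasts, smooth muscle, vessels and most myeloid cells lie in the lamina propria beneath. VDR is the nuclear receptor for 1,25(OH)2D3. It binds with RXR to DR3 elements, which are direct repeats of a hexamer spaced by a short gap, and immune cells are known to express it too.

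The VDR-binding sites with a pooled fold enrichment of at least 8 near these genes are printed below because the results turn on them. Fold enrichment is the pileup of fragments at the summit over the local background of the same library. The 7 stretches come from the mm9 genome and are given on the strand of the best match to the DR3 consensus, whose 15 bases are in capitals. They are Cd79b at chr11:106174271-106174390 (plus strand), Ms4a1 at chr19:11347293-11347412 (minus), Itgam at chr7:135200031-135200150 (minus), Col1a1 at chr11:94790098-94790238 (plus), Myh11 at chr16:14298771-14298890 (minus), Pecam1 at chr11:106571165-106571329 (plus) and Vwf at chr6:125590572-125590691 (plus).
Cd79b: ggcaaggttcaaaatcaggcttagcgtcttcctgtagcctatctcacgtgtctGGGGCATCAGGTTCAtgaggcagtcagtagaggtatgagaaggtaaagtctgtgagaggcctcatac
Ms4a1: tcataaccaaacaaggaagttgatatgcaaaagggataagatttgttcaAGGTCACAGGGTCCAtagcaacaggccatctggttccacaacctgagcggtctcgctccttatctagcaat
Itgam: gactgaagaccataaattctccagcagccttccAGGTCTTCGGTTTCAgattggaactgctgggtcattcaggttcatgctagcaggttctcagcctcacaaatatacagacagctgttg
Col1a1: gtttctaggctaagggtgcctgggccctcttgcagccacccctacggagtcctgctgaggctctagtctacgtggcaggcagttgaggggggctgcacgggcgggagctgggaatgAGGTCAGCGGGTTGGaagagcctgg
Myh11: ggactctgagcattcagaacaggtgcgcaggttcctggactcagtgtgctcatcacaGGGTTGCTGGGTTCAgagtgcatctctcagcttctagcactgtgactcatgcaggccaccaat
Pecam1: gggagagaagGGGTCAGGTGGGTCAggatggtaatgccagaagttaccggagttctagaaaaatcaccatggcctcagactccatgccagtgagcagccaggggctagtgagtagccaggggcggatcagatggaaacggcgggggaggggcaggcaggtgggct
Vwf: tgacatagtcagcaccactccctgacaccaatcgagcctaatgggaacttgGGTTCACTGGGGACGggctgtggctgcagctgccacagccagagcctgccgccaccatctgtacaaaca

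Over the 12 positions of DR3 outside its spacer, these matches differed from the consensus at 1 position for Cd79b (T4G) and Ms4a1 (T13C), at 2 for Itgam (A6T, G11T), Col1a1 (C14G, A15G), Myh11 (C5T, A6G) and Vwf (T13A, A15G), and at none for Pecam1. Positions count from the 5′ end of the capitals, with the consensus base first. The matches of Cd79b, Ms4a1, Vwf and Myh11 were centred within 5 bp of the summit, whereas that of Pecam1 lay 88 bp from it. Among the 34 VDR-binding sites in the gene windows (peaks of the 3 compartments joined where they overlapped), 5 had a match with at most 1 difference in the 200 bp at the summit and 16 one with at most 2. Over all pooled VDR peaks the shares with at most 1 difference were 10.4% (colon), 9.68% (SI crypt) and 8.25% (SI villus), and with at most 2 they were 35.2%, 29.8% and 28.9%. Both strands were searched, and a match of this kind is a likeness of letters.

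The ATAC-seq libraries held 14376006 to 38175468 tags after duplicates were removed, and the VDR ChIP-seq libraries 3100376 to 14716273 fragments. The pooled ATAC lists held 39428 (colon), 74734 (SI crypt) and 64782 (SI villus) peaks, so a gene without a colon peak was looked up in the shortest list. SI crypt VDR sample 1 stood apart, with the fewest fragments and 13381 peaks where the other 3 SI crypt samples had 1136 to 2480. Of 20 genes of gut epithelium, 14 to 18 had an open promoter (an ATAC peak within 1 kb of an annotated transcript start) in each of the 9 ATAC-seq libraries. Klf5, an epithelial transcription factor, had the highest mean promoter fold enrichment of that list (11.6) and Cdx1 the lowest (1.25, a sample without a peak counting as 1). In bulk libraries, few cells of a type and little open chromatin in each of many cells cannot be told apart.

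The promoters of the immune and stromal genes were closed in nearly all libraries. Pooled colon ATAC peaks lay at the promoters of 2 of the 32 genes (Cd68, Col1a1), SI crypt peaks at 4 (Cd79b, Col1a1, Pdgfra, Myh11) and SI villus peaks at 3 (Col1a1, Pdgfra, Tagln). Over all protein-coding genes the open shares were 51.4% (colon), 58.4% (SI crypt) and 54.8% (SI villus). Of 20 genes picked as markers of tissues outside the gut, 2 were open in each compartment (Mbp and Opn1sw). That list is no strict negative control, since Mbp also has forms used in immune cells and Gfap, another of its genes, also marks enteric glia. Thus 26 of the 32 immune and stromal genes had no promoter peak in any pooled list, Ptprc, Cd3e, Ms4a1, Csf1r, Acta2, Des, Pecam1 and Kdr among them.

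The open promoters found in the pooled lists had little support in single samples. The number of the 32 genes with an open promoter was 0, 0 and 2 for colon samples 1 to 3. It was 3, 0 and 3 for the SI crypt samples and 2, 1 and 0 for the SI villus samples. The means were 0.667 ± 1.15 (SD, n = 3), 2.0 ± 1.73 (SD, n = 3) and 1.0 ± 1.0 (SD, n = 3), so the compartments overlapped. The epithelial list in the same libraries gave 16, 17 and 17, then 18, 17 and 16, then 18, 18 and 14 open promoters. SI villus sample 3, with none of the 32 and the fewest open epithelial promoters, was called with a tag extension of 68 bp where the other 2 SI villus samples had 134 and 145, and the part of that setting was not tested.

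**Figure D1:**
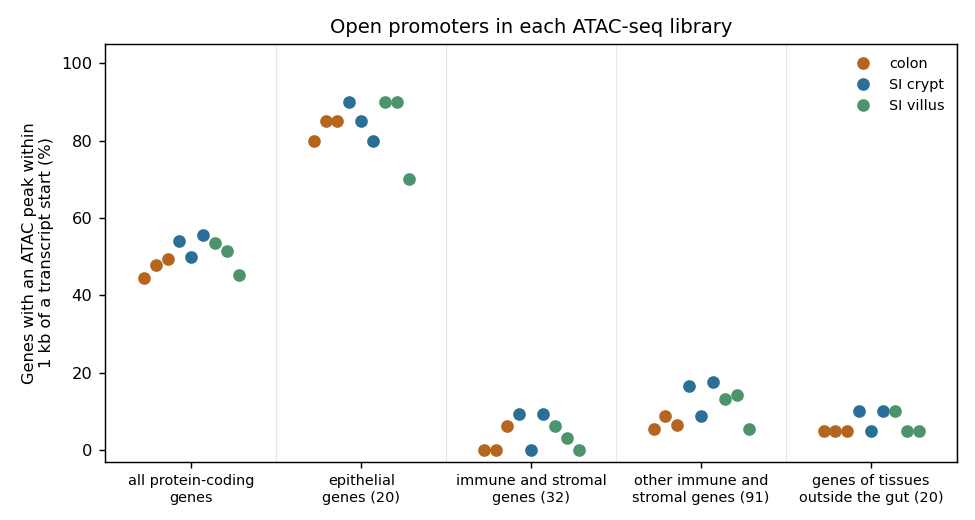
Share of genes (%, y axis) with an ATAC peak within 1 kb of a transcript start in each of the 9 ATAC-seq libraries (points, coloured by compartment), for 5 groups of genes (x axis). The epithelial genes lie at 70.0 to 90.0%, and the 32 immune and stromal genes at 0 to 9.38%, beside 5.0 to 10.0% for genes picked as markers of tissues outside the gut.

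Col1a1, which encodes the main chain of type I collagen, had the promoter peak with most support. Its fold enrichment was 6.09 in colon sample 3, 3.94 and 4.22 in SI crypt samples 1 and 3 and 6.90 in SI villus sample 1, with no peak in the other 5 libraries. The peak lay 0.924 kb inside the gene, in an intron, and each compartment had at least 1 library without it. Pdgfra, the receptor of mesenchymal progenitors and fibroblasts, had a peak only at its downstream start, 0.163 kb from it, with 5.18 in SI crypt sample 1 and 5.00 and 5.53 in SI villus samples 1 and 2. At the start shared by most Pdgfra transcripts no peak was called.

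Each of the other promoter peaks was called at the promoter in 1 single library. Cd68, a lysosomal glycoprotein of macrophages, had 4.04 in colon sample 3 alone. Cd79b had 5.67 and Myh11, the myosin heavy chain of smooth muscle, had 4.92, both in SI crypt sample 3 alone. Tagln, which encodes the actin-binding protein transgelin, had a pooled SI villus peak of 3.23 whose summit was at -1.11 kb, counting upstream as negative. In single libraries the Tagln peak came within 1 kb of the start only in SI crypt sample 1 (6.75).

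Only Col1a1 and Pdgfra entered the comparison of promoter fold enrichment between compartments, since it took genes with a promoter peak in at least 3 of the 9 libraries. In limma on log2 fold enrichment, Col1a1 was lower in colon than in SI crypt by a log2 difference of -0.54 ± 0.95 (SE, adjusted p = 0.734). For Pdgfra the difference between colon and SI villus was -1.63 ± 0.79 (SE, adjusted p = 0.203). Neither gene passed in any of the 3 contrasts, which called 3.54% of the 12272 genes tested as higher and 12% as lower in colon against SI crypt, 3.15% and 8.94% in colon against SI villus, and 3.73% and 1.03% in SI crypt against SI villus. Without centring, the higher calls made up 37.7% in place of 22.7%, 78.2% in place of 26% and 93% in place of 78.3% of all calls in these contrasts.

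The promoters of these genes were poor in CpG, a feature that the choice of genes did not use. In the 1 kb around the start shared by most transcripts, 30 of the 32 genes fell short of a CpG observed over expected ratio of 0.6 with a GC content of 50%, and Des and Kdr reached both. CpG-poor promoters were also those of 12428 of all 22359 protein-coding genes and of 14 of the 20 epithelial genes. Of these 12428 genes, the open shares were 25.1% (colon), 33.5% (SI crypt) and 29.8% (SI villus). Of the 30 CpG-poor immune and stromal genes 2, 4 and 3 were open. Among the 14 epithelial genes with CpG-poor promoters, 14, 13 and 14 were open in the same order. The CpG-rich promoters of Des, the intermediate filament of muscle, and of Kdr, a VEGF receptor of endothelium, had no peak in any compartment, where 84.3%, 89.5% and 86.1% of CpG-rich promoters were open.

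Over the whole windows, the counts included peaks at the genes' own promoters and at those of neighbours. A pooled ATAC peak overlapped the window of 16 (colon), 24 (SI crypt) and 25 (SI villus) of the 32 genes, beside 68.1%, 77.7% and 74.3% of all protein-coding genes. Without peaks at promoters of other genes the numbers were 14, 21 and 22. The genes span a median of 22.3 kb and all protein-coding genes 15.1 kb, and a longer gene has a wider window. The windows of Ptprc, Lyz2 (lysozyme of macrophages), Col1a2 and Col3a1 (fibrillar collagens), Lum (the matrix proteoglycan lumican) and Kdr held no pooled peak of either assay in any compartment. Without flanks, the genes with an ATAC peak over the body numbered 8, 14 and 14.

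Part of this open chromatin belonged to promoters of neighbouring genes. Of the 41 colon peaks in the windows, 10 lay within 1 kb of a transcript start of another gene and not at the gene's own, as did 13 of the 68 SI crypt and 12 of the 61 SI villus peaks. The median fold enrichment of these neighbour peaks was 7.81 (colon), 5.87 (SI crypt) and 5.43 (SI villus), and that of the remaining window peaks 3.85, 5.01 and 4.24. After joining over compartments, 7 ATAC sites were open in all 9 libraries, and 6 of them were at starts of Ube4a near Cd3g, Arhgef1 near Cd79a, Mpdu1 and Eif4a1 near Cd68 and Tomm40l near Fcer1g. The seventh lay in an intron of Vwf.

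**Figure D2:**
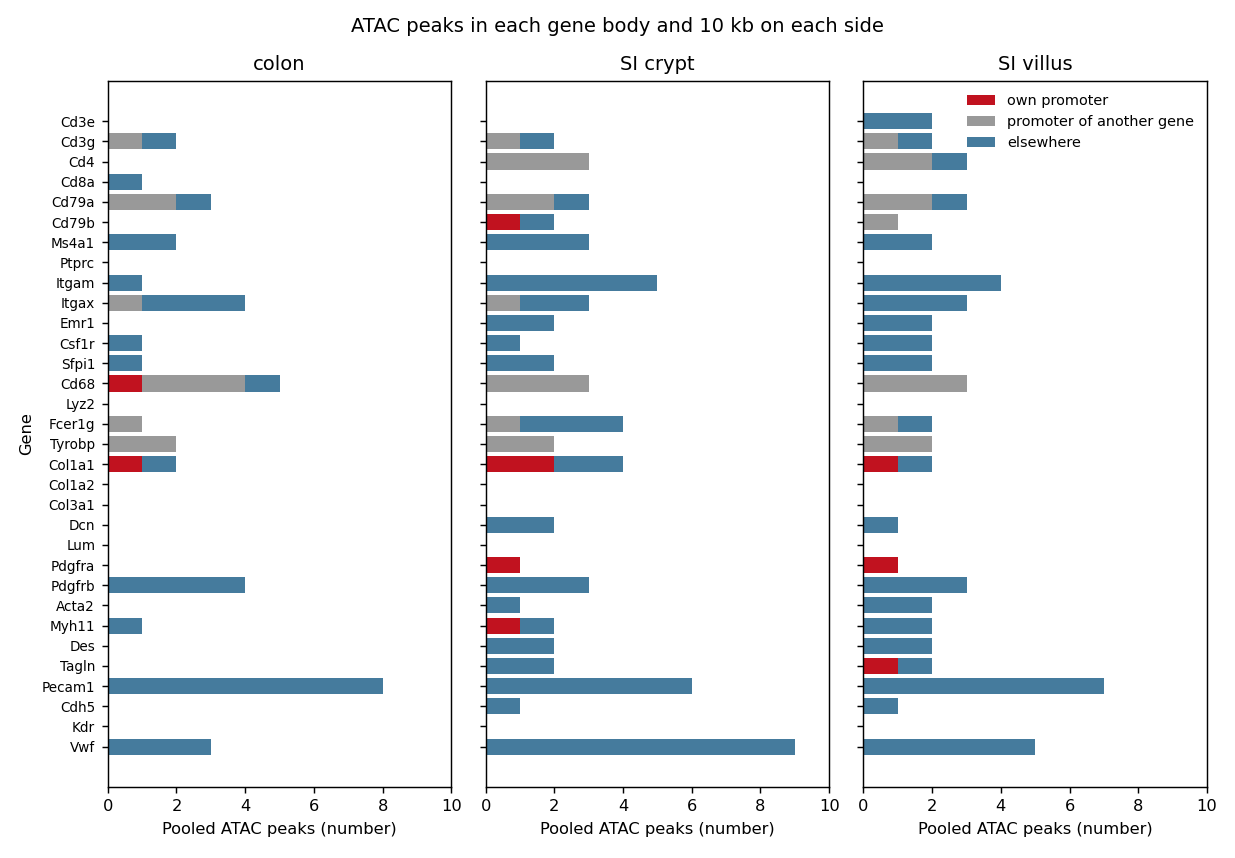
Number of pooled ATAC peaks (x axis) in the body and 10 kb flanks of each of the 32 genes (y axis, grouped by cell type), in colon, SI crypt and SI villus, split by whether the peak lies at the gene's own promoter, at a promoter of another gene or elsewhere. The rows of Ptprc, Lyz2, Col1a2, Col3a1, Lum and Kdr are empty, and Vwf and Pecam1 have the longest bars.

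T cell genes had few sites. Cd3e had open chromatin only in SI villus, at a site in an annotated UTR 10.2 kb from the start, with fold enrichments of 6.65 and 6.86 in samples 1 and 2, and at a site at -7.43 kb, with 4.78 and 3.63 in the same samples. Cd3g had a peak 13.4 kb from its start, beyond its 3′ end, with 3.54 in colon sample 3 only. It reached 7.11, 6.35 and 8.98 in the SI crypt samples and 7.497 and 7.42 in SI villus samples 1 and 2. All but 1 of the 4 Cd4 sites lay at starts of Leprel2 and Gpr162. Cd8a, a co-receptor of cytotoxic and intraepithelial T cells, had a single colon peak 14.1 kb downstream with 3.81 and 4.35 in samples 1 and 2.

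Among B cell genes, Ms4a1, which encodes CD20, had an ATAC site 20.7 kb from its start, beyond its 3′ end. Its fold enrichment was 11.8, 10.9 and 5.33 in the 3 SI villus samples, 5.63 in SI crypt sample 1 and 3.41 in colon sample 3. The SI villus samples overlapped the single SI crypt value and were all above the single colon value. The Cd79a site at -6.75 kb was open in 7 libraries with values of 4.66 to 6.94, in all compartments.

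Among myeloid genes, Cd68 alone had an open promoter, in colon, and several others had intronic or downstream sites. Emr1, which encodes the macrophage marker F4/80, had a site 7.98 kb into the gene, in an intron, with 10.1, 8.85 and 9.24 in SI crypt, 6.21 and 5.81 in SI villus samples 1 and 2 and no peak in colon. The SI crypt values did not overlap those of the other compartments. Csf1r, the receptor for the macrophage growth factor CSF1, had 9.47, 8.10 and 4.54 in SI villus and 6.601 and 5.32 in SI crypt samples 2 and 3 at an intronic site 21.8 kb from its nearest start, again with no colon peak. Itgax, the integrin chain CD11c of dendritic cells, had a site 21.7 kb from its nearest start, beyond the 3′ end, with 6.89 to 9.88 in the colon samples, 6.19 to 8.015 in the SI crypt samples and 5.05 and 4.05 in SI villus samples 1 and 2. An intronic site of Itgam at 2.9 kb, open in 7 libraries, also lies within the Itgax flank and was counted for both genes. Sfpi1, which encodes the myeloid transcription factor PU.1, was open in 8 libraries over a coding exon 18.5 kb from its nearest start, with values of 4.87 to 9.26. The ATAC peaks at Tyrobp, an adaptor of myeloid receptors, were all at starts of Nfkbid.

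Of the fibroblast genes, Dcn, which encodes the matrix proteoglycan decorin, had an intronic site 5.4 kb from its nearest start. It had 9.70, 12.2 and 7.75 in the SI villus samples, 5.07 and 7.40 in SI crypt samples 1 and 3 and no peak in colon, so the SI villus samples were all above the SI crypt samples. Col1a1 had a site 22.0 kb from its nearest start, beyond its 3′ end, with 8.29, 5.31 and 9.04 in the 3 SI crypt samples and 4.93 and 4.35 in SI villus samples 1 and 2. It also had one at -7.21 kb with 6.76, 7.60 and 8.40 in SI crypt only.

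Smooth muscle genes had open sites in the small intestine. Des had one 9.38 kb from its start, beyond its 3′ end, with 7.76, 7.41 and 5.40 in SI villus and 4.55 in SI crypt sample 3. Myh11 had 2 intronic sites, 38.3 and 53.9 kb into the gene, with values of 4.10 to 5.72 in SI crypt and SI villus. Acta2, the actin of smooth muscle, had 2 weak sites with values of 3.85 to 5.81. In colon, the only pooled ATAC peak at a smooth muscle gene was a Myh11 peak of 2.61 that no colon sample shared.

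Vwf, which encodes von Willebrand factor of endothelium, had the site open in every library, in an intron 20.4 kb from the nearest start. Its fold enrichment was 9.29, 6.06 and 12.6 (colon), 10.2, 10.2 and 12.8 (SI crypt) and 9.85, 9.78 and 9.89 (SI villus), and the compartments overlapped. SI crypt had further Vwf peaks, 9 in the pooled list beside 3 in colon and 5 in SI villus, the same order as the sizes of the whole lists. Pecam1, the adhesion molecule CD31, had 2 intronic sites, at -5.2 and -7.73 kb, each open in 7 libraries, with 5.73 to 8.80 at the first and 4.39 to 9.27 at the second. Neither gene had a peak within 1 kb of any of its annotated starts, of which there are 4 for Vwf and 6 for Pecam1.

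**Figure D3:**
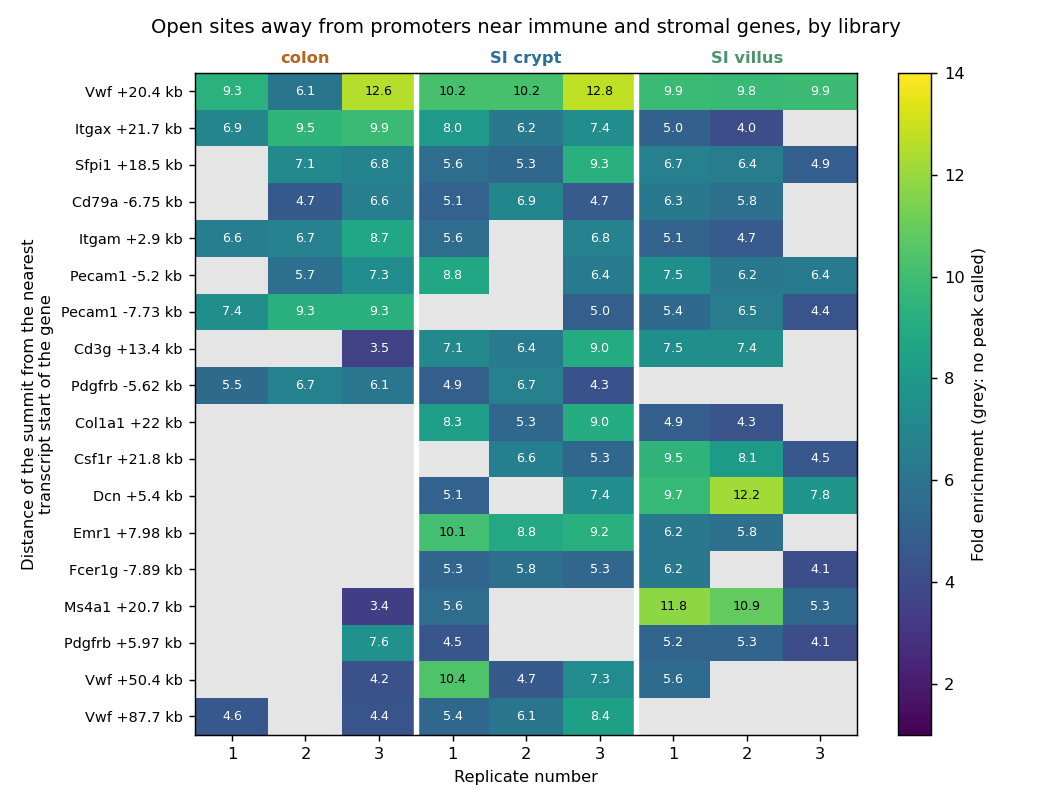
ATAC fold enrichment (colour and printed value, grey where no peak was called) at the 18 sites away from promoters that were open in at least 5 of the 9 libraries, with gene and distance from its nearest transcript start on the y axis and libraries by compartment on the x axis. The Vwf site at 20.4 kb is open in all 9 libraries, and those of Col1a1, Csf1r, Dcn, Emr1 and Fcer1g have no colon value.

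The compartments were compared over gene windows by the same limma fit on the highest ATAC fold enrichment in the window, a test added after the sites had been seen. Of the 32 genes 23 entered it, having a peak in at least 3 libraries. Colon was lower than SI crypt for Emr1, by a log2 difference of -3.24 ± 0.65 (SE, adjusted p = 0.00831), and for Cd4, by -2.44 ± 0.64 (SE, adjusted p = 0.0252). It was higher for Cd3g, by 0.85 ± 0.17 (SE, adjusted p = 0.00763). Emr1 and Cd4 had no colon peak and passed the filter on low values only with the SI crypt libraries, so their calls are no support for a difference of the group of genes. Over all 16624 genes 16.7% were called lower and 4.51% higher in colon. The calls of Cd3g and Cd4 were at neighbours, since the strongest window peaks were at Ube4a for Cd3g and at Leprel2 or Gpr162 for Cd4. The Cd4 call was lost with any single colon or SI crypt library left out, at limma adjusted p from 0.0550 (SI crypt replicate 2) to 0.0797 (SI crypt replicate 3), and at a -log10 q of at least 5 (0.210). For Emr1, limma adjusted p ranged from 0.000266 to 0.0324 over the alternatives. This range adds no support, since Emr1 entered the fit only through the SI crypt libraries.

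Against SI villus, 5 genes were lower in colon, beside 14.8% of all genes, and 1 was higher, beside 4.37%. Dcn was lower by a log2 difference of -3.42 ± 0.66 (SE, adjusted p = 0.00720), Des by -2.90 ± 0.57 (SE, adjusted p = 0.00772), Myh11 by -2.55 ± 0.61 (SE, adjusted p = 0.0183), Pdgfra by -2.39 ± 0.62 (SE, adjusted p = 0.0255) and Csf1r by -2.48 ± 0.73 (SE, adjusted p = 0.0418). Of these, Dcn, Des, Myh11 and Pdgfra had no colon peak and passed the filter only with the SI villus libraries, and their number is a description. The higher one was Cd3g (0.69 ± 0.17, SE, adjusted p = 0.0204), at the Ube4a start. The calls of Dcn and Des held under all 14 alternatives, whereas that of Csf1r held under 5. For Dcn and Des this adds no support, since they entered the fit only through the SI villus libraries. Csf1r also lost its call with the replicate number as a block, at adjusted p = 0.0511. Csf1r lost it as well without colon replicate 1 (limma adjusted p = 0.113) or 2 (0.110), SI crypt replicate 3 (0.0512) or SI villus replicate 1 (0.102), 2 (0.106) or 3 (0.0627). Pdgfra lost its call without colon replicate 1 (limma adjusted p = 0.0714), 2 (0.0711) or 3 (0.0622) or SI villus replicate 1 (0.0571) or 2 (0.0761), and Cd3g without colon replicate 1 (0.0524) or 2 (0.062) or SI villus replicate 1 (0.0620) or 2 (0.0676). Myh11 lost its call without colon replicate 2 (limma adjusted p = 0.0507) or SI villus replicate 2 (0.0555). Without centring, 59.9% of all calls in this contrast were higher in colon, in place of 22.8%. No gene of the 32 passed between SI crypt and SI villus, where 3.11% of all genes were called higher and 1.32% lower, and 6 of the 23 had an unadjusted p under 0.05, as did 20.2% of all genes. A library without a called peak was set to a fold enrichment of 1, so these differences depend on which peaks passed the authors' threshold.

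VDR-binding peaks overlapped the windows of 12 (colon), 9 (SI crypt) and 13 (SI villus) of the 32 genes, beside 51.4%, 38.8% and 44.7% of all protein-coding genes. In any compartment 16 genes had a VDR peak, and 16 had none, namely Cd3e, Cd3g, Cd4, Ptprc, Itgax, Emr1, Sfpi1, Lyz2, Tyrobp, Col1a2, Col3a1, Dcn, Lum, Pdgfra, Acta2 and Kdr. At promoters, VDR peaks were found for 2 genes in colon (Cd68, Fcer1g) and for Cd68 in SI crypt and SI villus, beside 24.3%, 19.2% and 26.1% of all genes. Of the 34 joined sites 11 were called in no single sample, and 7 in at least 6 of the 12.

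The number of these genes with a VDR peak varied widely between single libraries. It was 3, 8, 9 and 9 for colon samples 1 to 4. It was 9, 4, 2 and 6 for the SI crypt samples and 9, 7, 1 and 6 for the SI villus samples. As shares of the 32 genes these were 9.38 to 28.1% (colon), 6.25 to 28.1% (SI crypt) and 3.13 to 28.1% (SI villus), where all protein-coding genes had 7.78 to 32.4%, 4.71 to 40.8% and 5.06 to 31.5%. The share of these genes was below that of all genes in colon sample 4, SI crypt sample 1 and SI villus samples 1, 2 and 3, and above it in the other 7. The mean per sample was 7.25 ± 2.87 (SD, n = 4) for colon, 5.25 ± 2.99 (SD, n = 4) for SI crypt and 5.75 ± 3.40 (SD, n = 4) for SI villus, and the compartments overlapped.

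**Figure D4:**
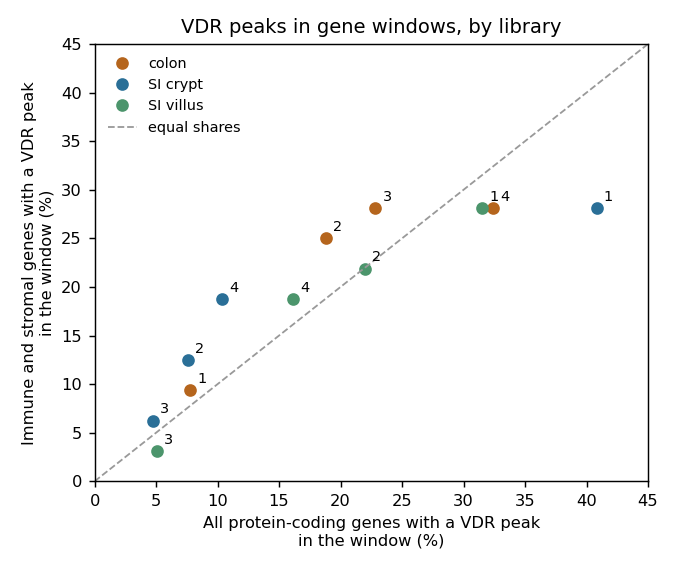
Share of the 32 immune and stromal genes with a VDR peak in the window (%, y axis) against that of all protein-coding genes (%, x axis) in each of the 12 VDR ChIP-seq libraries, coloured by compartment and numbered by replicate. SI crypt sample 1 lies farthest to the right, at 40.8% of all genes and 28.1% of the 32.

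Cd79b held the site with the highest pooled -log10 q of these genes, in an intron 1.51 kb from its nearest start. Its fold enrichment was 12.3, 17.25, 9.20 and 14.9 in SI crypt samples 1 to 4 and 15.0, 7.83 and 12.1 in SI villus samples 1, 2 and 4, with no peak in SI villus sample 3 or in any colon sample. In the pooled lists it reached 18.15 in SI crypt (-log10 q 123.5) and 12.8 in SI villus. All SI crypt samples were thus above all colon samples. The difference between colon and SI crypt was a log2 of -3.71 ± 0.82 (SE, limma adjusted p = 0.0185), where 0.463% of the 5395 genes tested were called lower in colon and 0.686% higher. Cd79b passed the filter, a peak in at least 4 libraries, only with the SI crypt samples, so its call is no independent support for the difference. That call was lost without SI crypt replicate 2 (limma adjusted p = 0.06496), 3 (0.0610) or 4 (0.0942). Against SI villus the difference was -2.35 ± 0.82 (SE, adjusted p = 0.155), where 0.704% of all genes were called lower in colon and 0.964% higher. Without SI villus replicate 3, the sample lacking the peak, it passed (limma adjusted p = 0.0306). That was the only 1 of 17 alternatives to pass, with limma adjusted p up to 0.314. It adds no support, since the sample left out is the one that went against the difference. The nearest start of another gene, that of Gh, was 11.2 kb away.

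Vwf carried the colon counterpart, in an intron 87.7 kb from its nearest start. The fold enrichment was 4.71, 18.8, 10.7 and 14.5 in the colon samples, and no SI crypt or SI villus sample had a peak in the Vwf window. With a peak in exactly 4 libraries, all of them colon, Vwf entered the fit only through the compartment in which it was high, so no test of this difference is given. The chromatin at this site was open in the 3 SI crypt samples (5.41, 6.06 and 8.39), in colon samples 1 and 3 (4.57 and 4.39) and in no SI villus sample.

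Ms4a1, Itgam and Col1a1 had sites bound in all compartments. The Ms4a1 site, at -6.68 kb, had 13.05, 11.3 and 12.0 in colon samples 2 to 4, 18.2, 9.84 and 14.1 in SI crypt samples 2 to 4 and 8.49 and 14.4 in SI villus samples 3 and 4. Sample 1 lacked it in each compartment. Itgam, the integrin chain CD11b of myeloid cells, had a site at -6.06 kb, with 6.94 and 10.5 in colon samples 2 and 4. The same Itgam site had 6.50, 7.63 and 9.46 in SI crypt samples 1, 2 and 4 and 5.41 and 6.90 in SI villus samples 1 and 2. The Col1a1 site, at -7.38 kb, had 10.6, 9.28 and 13.6 in colon samples 2 to 4, 9.27, 9.02 and 7.05 in SI crypt samples 1, 2 and 4 and 9.92 and 6.204 in SI villus samples 1 and 2. None of these 3 genes passed between any compartments in limma, with adjusted p from 0.502 to 1.

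**Figure D5:**
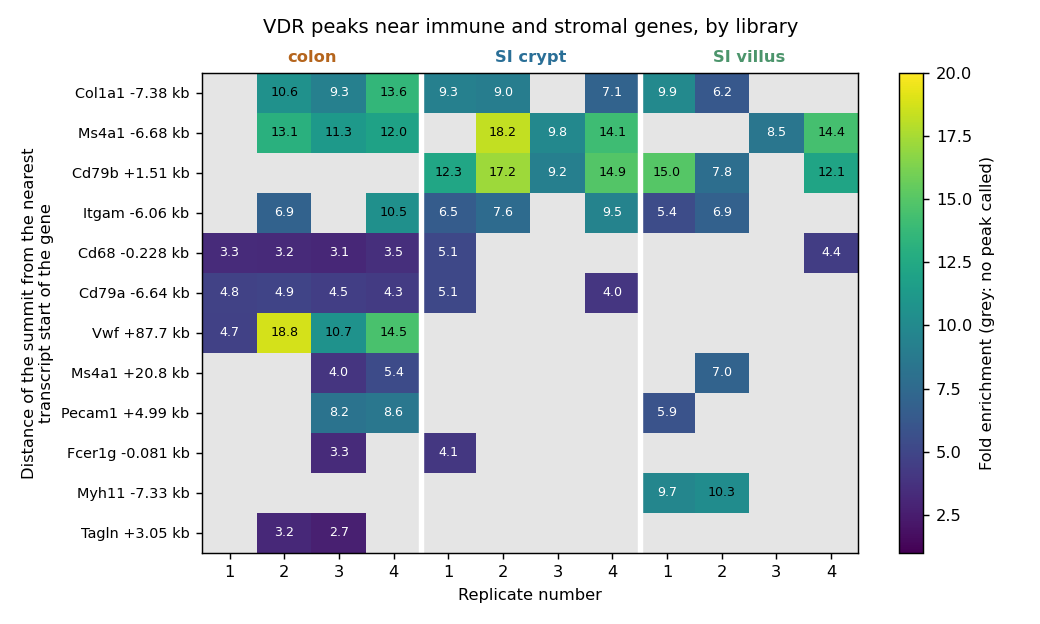
VDR fold enrichment (colour and printed value, grey where no peak was called) in the 12 libraries (x axis, by compartment and replicate) at the 12 sites away from promoters of other genes that were called in at least 2 libraries, with gene and distance from its nearest transcript start on the y axis. Col1a1 and Ms4a1 have values in all compartments, whereas Cd79b has none in colon and Vwf none in SI crypt or SI villus.

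Other sites were bound in fewer libraries. Myh11 had one at -7.33 kb in SI villus samples 1 and 2 alone, with 9.71 and 10.3. Pecam1 had one in an intron 4.99 kb from its nearest start, with 8.21 and 8.55 in colon samples 3 and 4 and 5.89 in SI villus sample 1. The Cd79a site at -6.64 kb, which lies 5.83 kb beyond the start of Rps19, was weak and reached all 4 colon samples (4.75, 4.90, 4.49 and 4.27) and SI crypt samples 1 and 4 (5.10 and 4.00). Cd68 had a promoter site with 3.32, 3.24, 3.14 and 3.54 in colon, 5.14 in SI crypt sample 1 and 4.42 in SI villus sample 4. Pdgfrb, the receptor of pericytes, had its most widely called peak far upstream, with its summit 1.08 kb from the start of Cdx1, in 6 libraries with values of 4.36 to 9.10. This peak reached within 1 kb of that start, so it was also a promoter peak of Cdx1, a gene of the epithelial list. It is thus no site particular to Pdgfrb.

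The strong VDR-binding sites of these genes differed in whether the chromatin was open. For peaks with a fold enrichment of at least 8, an ATAC peak of the same compartment overlapped 1 of 5 colon peaks (Vwf), 3 of 4 SI crypt peaks (Cd79b, Ms4a1, Col1a1, but not Itgam) and 0 of 4 SI villus peaks (Cd79b, Ms4a1, Col1a1, Myh11). Over all pooled VDR peaks of that strength the shares were 58.6% (colon), 68.5% (SI crypt) and 75.7% (SI villus). Of their VDR peaks of any strength, 10 of 23, 8 of 13 and 8 of 20 overlapped an ATAC peak, beside 41.9%, 50.4% and 56.3% of all VDR peaks. At the Cd79b site the SI crypt ATAC peak had a pooled fold enrichment of 3.51 and was called in no single sample. At the Ms4a1 site it was 4.01, called in SI crypt sample 1 only. Whether the ATAC-seq and ChIP-seq mice differed in treatment or age at these sites was not tested.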

How the data were processed

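The peak lists deposited for 21 samples (12 VDR ChIP-seq, 9 ATAC-seq) and for the pooled samples of each compartment were used. The submitters' processing notes name cutadapt 1.9.1, Bowtie2 2.2.6, SAMtools 0.1.19, Picard 2.18.27, bedtools 2.17.0, MACS2 2.1.0.20150731, deepTools and DiffBind with mm9, and the methods add NGmerge. Peak calling by the authors used MACS2 with no control and a q-value cutoff of 0.05, per sample and on pooled samples. The deposited fold enrichment is a ratio of the summit pileup to the local background of the same list, and -log10 q comes from the same test. The deposited pileup, a signal of fragments at the summit, depends on depth and entered no comparison. The other deposited columns are positions. The authors' sets of sites differing between compartments (DiffBind) were not used.

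Peaks had to share at least 1 bp with a window. A promoter was 1 kb on either side of any protein-coding transcript start, and distances count along the gene from its nearest start. The fits used limma 3.58.1 in R 4.3.3 on log2 of the highest fold enrichment (1 without a peak, called values centred on the median of genes called in every sample), all samples of an assay in one fit, with Benjamini-Hochberg adjustment over all genes at 0.05. In simulations of 5395 genes for VDR windows, 16% of 4-fold and 87% of 16-fold changes were recovered, and of 12272 genes for ATAC promoters, 71% and 94%. Unchanged genes made up 7.21% (VDR windows) and 4.62% (ATAC promoters) of the calls in these simulations. In the data, only 321 of the 5395 VDR windows and 8312 of the 12272 promoters had a peak in every sample. Recovery for genes with missing peaks set to 1 was not tested. Python 3.11.15 with pysam 0.24.0 read sequences. All 32 genes are named, with neighbours whose promoter holds a window peak, the highest and lowest of each comparison list, and other immune and stromal genes that the promoter fit called in colon. The genes, lists and tests were chosen with earlier results of these data known. Genes are not replicates. Replicate numbers were checked as pairs by the correlation of deviations from the group means. Over the 4 same-numbered pairs of SI crypt and SI villus VDR samples it was 0.141 to 0.322, and the labels name no shared mouse. Unlike-numbered pairs reached 0.176 (SI crypt 1 with SI villus 2) and 0.243 (colon 4 with SI villus 2). The correlations thus do not settle a pairing, and a fit with pairs was run only as an alternative. For same-numbered pairs it was at most 0.108 with colon and at most 0.0568 in ATAC-seq.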

Additional observations from a re-analysis of the deposited data

Results flagged for a closer look

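In groups of 4 VDR samples, 28 sets of values were searched for an outlying sample, and 7 were found. The gap of such a sample to the nearest other had to exceed the 95% critical value of Dixon's ratio to the range. Chance gives this in about 1 of 20 sets of independent values with a normal spread. The sets here include small tied counts and several measures of the same samples, so the 7 cannot be set against that rate. Colon sample 1 had a VDR peak near only 3 of the 32 immune and stromal genes, where the other colon samples had 8, 9 and 9. SI crypt sample 1 had 13381 peaks and covered 40.8% of all gene windows and 21.9% of all promoters, far above the other SI crypt samples. It was also the only SI crypt sample with VDR peaks at promoters of the 32 genes, 2 in number (Cd68 and Fcer1g). Colon sample 3 likewise had 2 such promoters (Cd68 and Fcer1g) where the others had 1 (Cd68), and SI villus sample 4 had 1 (Cd68) where the others had 0. The promoter counts of colon sample 3 and SI villus sample 4 are set apart by 1 gene each, and that of SI crypt sample 1 by 2.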

How the results depend on the processing

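The peak lists record only what passed the authors' threshold, with 3100376 fragments in the shallowest VDR library, and a gene without a peak may still hold cells or binding below that level. The number of the 32 genes with an open promoter moved from 2 to 1 in colon at a -log10 q of at least 5 and within 500 bp of a start, and within 500 bp it was 2 for SI crypt and 1 for SI villus. Within 2 kb it was 7 in SI crypt. With peaks called in at least 2 samples it was 0, 0 and 1 for colon, SI crypt and SI villus, and with equal numbers of the strongest peaks 2, 0 and 2. Without flanks the genes with a VDR peak were 6, 3 and 4 and those with an ATAC peak 8, 14 and 14 (colon, SI crypt, SI villus). With flanks of 50 kb the VDR counts were 22, 15 and 21, and with support from at least 2 samples 8 in SI villus. With equal numbers of the strongest peaks per library the mean open promoters were 0.333 for colon and 0.0 for both SI crypt and SI villus. Colon was then no longer the lowest, so the order of the compartments depended on the length of the lists. The mean genes with a VDR peak were 2.75 (colon), 2.5 (SI crypt) and 1.0 (SI villus) at equal numbers. At a -log10 q of at least 5 the mean open promoters in SI crypt were 0.667. Counting only the start shared by most transcripts, chosen after seeing the data, gave open promoters within 1.5 times the counts reported.

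Calls over all genes depended on the samples. Leaving out single samples gave 848 to 2336, 649 to 1532 and 1 to 580 promoter calls (1908, 1483 and 585 with all, in the order colon against SI crypt, colon against SI villus, SI crypt against SI villus), 11 to 167 and 30 to 170 VDR calls in the first 2 contrasts (62 and 90 with all), and 2013 to 3913, 1898 to 3193 and 19 to 773 calls of ATAC windows (3526, 3179 and 737 with all). The highest VDR counts came without SI crypt replicate 1. No VDR window was called between SI crypt and SI villus by limma under any alternative, with 200 at an unadjusted p under 0.05. Without centring the calls were 1066 (promoters, colon against SI crypt), 23 and 28 (VDR, colon against SI crypt and SI villus) and 1892 and 467 (ATAC windows, colon against SI crypt and SI crypt against SI villus). Of the VDR calls 43.5% and 39.3% were then higher in colon, in place of 59.7% and 57.8%, and of the ATAC window calls 86.9% were higher in SI crypt than in SI villus, in place of 70.1%. At a -log10 q of at least 5 the promoter calls were 1035, 632 and 356, and the ATAC windows gave 1881 in colon against SI villus. The replicate block gave 378 promoter calls and 487 ATAC window calls in SI crypt against SI villus. For VDR windows the same-numbered SI crypt and SI villus samples were also treated as pairs. With only those samples and the replicate block, an alternative chosen after seeing the data, no gene was called by limma, with 245 at an unadjusted p under 0.05, and the lowest adjusted p of the immune and stromal genes was 0.767. In the replicate block over all samples, the call of Csf1r (ATAC windows, colon against SI villus) was the only one of these genes to be lost. The VDR samples of colon and all ATAC-seq samples shared only a number with those of other compartments. In the ATAC windows Col1a1, Dcn, Myh11, Des and Csf1r passed between colon and SI crypt in 1 to 3 alternatives each, as did Cd4, Ms4a1, Itgax and Emr1 between colon and SI villus and Ms4a1 and Des between SI crypt and SI villus.

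The sign of the log2 difference turned under at least 1 alternative in 32 results of the immune and stromal genes, 63 times in all, and never with an adjusted p under 0.05. Without centring the log2 differences that turned were Fcer1g -0.074 (VDR windows, colon minus SI crypt), Cd79a 0.032, Fcer1g 0.053 and Tyrobp 0.12 (ATAC windows, colon minus SI crypt), Cd79a 0.14, Cd68 0.20 and Tyrobp 0.21 (ATAC windows, colon minus SI villus), Cd79a 0.10, Cd68 0.035 and Tyrobp 0.096 (ATAC windows, SI crypt minus SI villus). At a -log10 q of at least 5 the log2 differences that turned were Cd68 -0.14 (VDR windows, colon minus SI crypt), Cd68 0.44 (VDR windows, SI crypt minus SI villus), Ms4a1 -0.18 (ATAC windows, colon minus SI crypt), Itgam -0.32 and Pdgfrb -0.65 (ATAC windows, SI crypt minus SI villus). Leaving out single samples moved these log2 differences at promoters over the ranges Col1a1 -0.90 to 0.77 (colon minus SI villus), Col1a1 -0.053 to 1.31 (SI crypt minus SI villus). Leaving out single samples moved these log2 differences of VDR windows over the ranges Ms4a1 -1.13 to 0.82, Fcer1g -0.10 to 0.24 and Col1a1 -0.34 to 1.37 (colon minus SI crypt), Ms4a1 -0.50 to 1.29 and Itgam -0.10 to 1.08 (colon minus SI villus), Ms4a1 -0.32 to 1.42 and Cd68 -0.83 to 0.0053 (SI crypt minus SI villus). Leaving out single samples moved these log2 differences of ATAC windows over the ranges Cd79a -0.24 to 0.037, Cd68 -0.059 to 0.074, Tyrobp -0.18 to 0.086, Pdgfrb -0.050 to 0.35 and Pecam1 -0.0032 to 1.52 (colon minus SI crypt), Cd79a -0.25 to 0.00028, Itgam -0.33 to 1.33, Tyrobp -0.21 to 0.051 and Pecam1 -0.0057 to 0.16 (colon minus SI villus), Cd3g -0.30 to 0.018, Cd79a -0.19 to 0.093, Itgam -0.49 to 1.17, Sfpi1 -0.23 to 0.16, Tyrobp -0.13 to 0.090, Pdgfrb -0.19 to 0.20, Tagln -0.82 to 0.91, Pecam1 -1.46 to 0.063 and Vwf -0.070 to 0.19 (SI crypt minus SI villus). The causes of these changes were not tested.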

Other observations

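Among 91 other immune and stromal genes, the pooled lists gave 11 (colon), 23 (SI crypt) and 13 (SI villus) open promoters. Of all protein-coding genes, 51.4%, 58.4% and 54.8% were open in the same order. By cell type, the open ones in SI crypt were 1 of 15 T and NK cell genes, 0 of 8 B and plasma cell genes, 7 of 24 leukocyte and myeloid genes, 6 of 20 fibroblast genes, 4 of 12 genes of smooth muscle, glia and neurons and 5 of 12 endothelial genes. For the same cell types the counts were 0, 0, 4, 2, 2 and 3 in colon and 1, 0, 3, 3, 3 and 3 in SI villus.

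Of these 91 genes, 68 had no promoter peak in any single library, among them 17 of the 24 leukocyte and myeloid genes and 7 of the 12 endothelial genes. Only 14 had a peak in at least 3 libraries and entered the limma fit, and Cx3cr1, Ret and Esam were the 3 called between colon and a small intestinal compartment. Over all 12272 genes tested, 3.54% were called higher and 12% lower in colon against SI crypt. Against SI villus these shares were 3.15% and 8.94%, so the 3 calls are a description and no result about the list. Cx3cr1, the fractalkine receptor of intestinal macrophages, had 9.01, 5.51 and 6.33 in the SI crypt samples and no peak in the other 6 libraries, so it entered the fit only through SI crypt and the values are given without their test. Ret, a receptor of enteric neurons that is also used elsewhere, had 8.32, 6.66 and 10.5 (SI crypt), 6.17, 6.205 and 5.73 (SI villus) and 4.655 in colon sample 2 alone, with adjusted p = 0.0198 against SI crypt and 0.0364 against SI villus. Esam, an adhesion molecule of endothelial junctions, was open in all 9 libraries, with 6.50 to 7.68 in colon and 8.54 to 13.8 in SI villus (adjusted p = 0.0232). Its SI crypt values of 11.18, 12.14 and 6.995 overlapped those of colon, and that contrast did not pass (limma adjusted p = 0.0588). Whether the calls of Ret and Esam hold under the alternatives was not tested.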
